A study of Bos taurus with 9 samples.

Results

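BHB was added to the medium in which bovine oocytes matured at low glucose, and the blastocysts that grew from those oocytes were compared with blastocysts from low glucose medium alone. The comparison rests on 6 of the 9 sequencing libraries of the study, 3 per medium, chosen by their labels. The oocytes, inside their cumulus cells, spent 24 hours in medium with 2.75 mM glucose, or with 2.75 mM glucose and 1.8 mM BHB. Both media also held serum, FSH, estradiol and pyruvate. Fertilisation and embryo culture followed, identical for both, and whole blastocysts were frozen on day 8, so BHB was present only before fertilisation. Pools held 9, 11 and 9 embryos in low glucose and 10, 10 and 10 with BHB. The 3 control libraries (5.5 mM glucose, 10, 10 and 11 embryos) are given beside the results for reference. They were also part of the fits, where they add to the estimate of the spread behind each SE, interval and p. The labels do not say whether the replicates are separate maturation runs, so p-values here measure the spread between these pools, which may be technical. Breed and sex of the embryos are not given in the labels.

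The labels do not spell out BHB. In this field it is the usual short form of beta-hydroxybutyrate, the ketone body that the liver makes from fatty acids when glucose is scarce, as in dairy cows early in lactation. Cells take it up through monocarboxylate carriers, oxidise it to acetoacetate through BDH1 and, through OXCT1 and ACAT1, turn it into acetyl-CoA for the TCA cycle. It is also described as an inhibitor of class I histone deacetylases, with TXNIP and FOXO3 among the genes named in that context. The blastocyst has a trophectoderm, which forms the placenta, an epiblast, which forms the fetus, and a hypoblast, which forms the yolk sac.

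Values are in CPM, the counts of a gene relative to the total of its library, scaled between libraries by TMM factors. A log2 fold change is BHB minus low glucose, with its standard error (SE) from edgeR's quasi-likelihood fit, so 1 means 2-fold higher with BHB. The unpaired fit ignores the replicate number and the paired fit uses it as a block. CPM depend on transcript length, so no level is compared between genes. Because the libraries are bulk, fewer cells of a type and less RNA per cell cannot be told apart in any of these values.

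No gene passed the test. Of 16469 genes, 0 were higher and 0 lower with BHB at an adjusted p under 0.05 (Benjamini-Hochberg, edgeR), which is 0% of genes, in the unpaired and in the paired fit alike. The smallest edgeR adjusted p was 1.00 without pairing and 0.606 with it. At an unadjusted p under 0.05, 173 genes were higher (1.05% of those tested) and 97 lower (0.589%) in the unpaired fit. In the paired fit these were 217 genes (1.32%) and 123 genes (0.747%). In each fit the total was under the number that a threshold of 0.05 passes on average when no gene differs. All 3 BHB libraries lay above all 3 low glucose libraries in 488 genes (2.96%) and below them in 419 (2.54%). DESeq2 called 1 gene higher and 1 lower, and 7 genes with the replicate block, while limma-voom called 0.

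The libraries of both media were also interleaved as wholes. Correlations of log2 CPM ran from 0.956 to 0.973 between libraries of the same medium (median 0.965) and from 0.958 to 0.978 between libraries of different media (median 0.966). Positive fold changes numbered 8432 and negative ones 8037, with a median of 0.01. Total estimated counts of the 6 libraries ran from 55795045 to 75178898. Low glucose replicate 1 held the largest share of mitochondrially encoded transcripts (7.93%) and BHB replicate 2 the smallest (2.25%). As for the labelled stage, transcripts of the blastocyst factors POU5F1, CDX2 and GATA6 were found in every library.

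How small a difference these libraries could have bounded depended on the level of the gene. The 95% interval of the fold change lay within 2-fold in either direction for 10553 of 16469 genes (64.1%). It did so for 98.5% of the 2067 genes at 100 CPM or more and for 97.6% of the 6409 genes between 10 and 100 CPM. Between 1 and 10 CPM the share was 50.9%, and under 1 CPM it held for 5 of 3557 genes. Of the 823 genes whose point estimate was beyond 2-fold, 763 were under 1 CPM. Differences of 2-fold thus lay outside the interval of most genes above 10 CPM, and could not be told from 0 in genes under 1 CPM at this depth and number of pools.

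**Figure D1:**
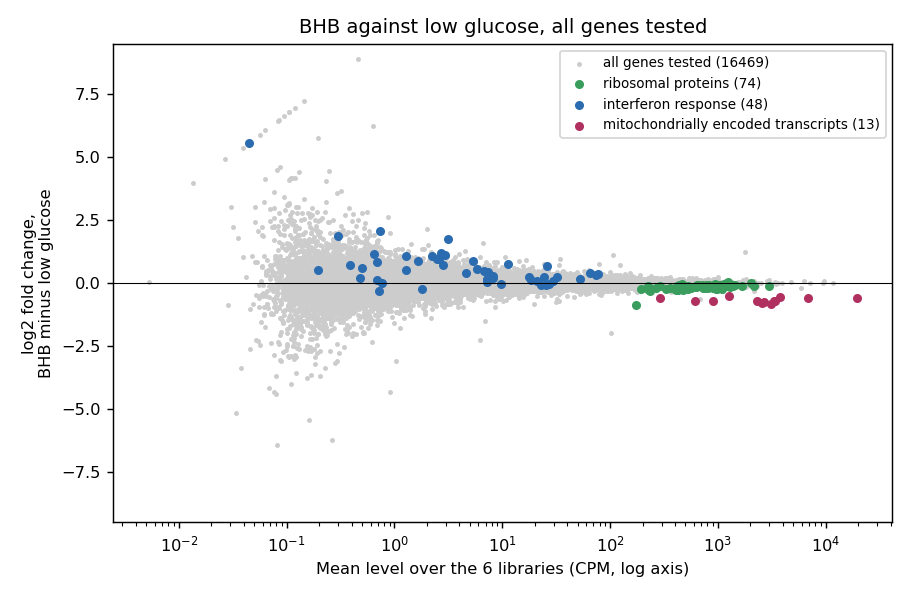
Log2 fold change (BHB minus low glucose, vertical axis) of each of the 16469 tested genes against its mean CPM over the 6 libraries (log axis), with 3 gene lists coloured. The scatter widens below 1 CPM, mitochondrially encoded transcripts (13) lie below 0, 73 of 74 ribosomal protein genes lie below it as well, most of them close to it, and most interferon response genes (48) lie above it.

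Since no gene passed, the genes with a symbol and the smallest p in each direction describe the strongest differences between the media. In none of these 16 genes did the libraries of the media overlap, a property they share with the 2.96% and 2.54% of all genes given above and that their choice favours. Of the 8 genes higher with BHB, 5 were under 1 CPM in both media, and of the 8 lower, 1.

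LOC101903284, a locus without a described function, was found almost only in the BHB libraries. It had 0, 0.0422 and 0 CPM in low glucose replicates 1 to 3, 0.919, 1.71 and 1.15 CPM with BHB and 0 CPM in each control library. In estimated counts this was 3 against 246, a ratio of 84.3 with an exact counting interval of 28.5 to 412, which covers counting error only. The mirror image was LOC107131172, another undescribed locus, with 1.62, 0.718 and 2.88 CPM in low glucose, 0, 0.175 and 0.0727 CPM with BHB and 2.07, 1.87 and 0.788 CPM in control, a log2 fold change of -4.32 (SE 0.90). These are the genes that DESeq2 called, with DESeq2 adjusted p of 0.00329 and 0.000884, whereas edgeR's adjusted p was 1.00 for each.

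GRB14, an adaptor that binds the activated insulin receptor and dampens its signal, was almost absent from low glucose libraries. Its values were 0, 0 and 0.017 CPM in low glucose, 0.443, 0.378 and 0.345 CPM with BHB and 0.269, 0.502 and 0.327 CPM in control, so the BHB libraries lay in the control range. The counts were 1 in low glucose and 74 with BHB, a ratio of 76.1 with an exact counting interval of 13.2 to 3046. SARDH, the mitochondrial enzyme that demethylates sarcosine to glycine, had 1 count in low glucose and 32 with BHB, a ratio of 32.9 with an interval of 5.50 to 1340. In CPM that was 0.0153, 0 and 0 in low glucose, 0.18, 0.148 and 0.182 with BHB and 0.555, 0.362 and 0.728 in control. IQUB, a gene linked to cilia, had no count in low glucose and 54 with BHB, at least 18.5-fold higher when the low glucose group is set at a floor of 3 counts in all. GRB14, SARDH and IQUB were under 1 CPM in every library.

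LSAMP, a neuronal cell adhesion molecule, stood at 0.29, 0.0845 and 0.0339 CPM in low glucose, 0.738, 0.499 and 1.11 CPM with BHB and 2.02, 4.42 and 3.18 CPM in control. Its log2 fold change was 2.49 (SE 0.67), and the BHB libraries lay between those of the other media. ATP8A2, a flippase that moves phospholipids across membranes, had 0.0458, 0.0282 and 0 CPM in low glucose and 0.131, 0.742 and 0.455 CPM with BHB, with 0.756, 0.321 and 0.609 CPM in control.

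KRT17 and OSBPL10 complete the higher side, both above 1 CPM in every library. KRT17, an epithelial keratin, had 1.19, 1.39 and 1.56 CPM in low glucose and 3, 3.05 and 3.11 CPM with BHB, a log2 fold change of 1.14 (SE 0.32, 95% interval 0.44 to 1.85). The 3 BHB libraries were close to each other, and control, at 1.55, 1.97 and 1.17 CPM, lay nearer to low glucose. OSBPL10, a lipid-binding protein of the oxysterol-binding protein family, had 7.01, 5.64 and 7.16 CPM in low glucose and 10.8, 11.7 and 8.95 CPM with BHB, a log2 fold change of 0.66 (SE 0.19). Control was at 11.2, 10.5 and 13.2 CPM, within or above the BHB range.

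RPL12, a protein of the large ribosomal subunit, was among the genes on the lower side. It had 252, 224 and 203 CPM in low glucose and 107, 83.8 and 181 CPM with BHB, a log2 fold change of -0.87 (SE 0.26, 95% interval -1.44 to -0.30). Its libraries did not overlap, but BHB replicate 3 came close to the lowest low glucose library, and control ranged over both at 138, 216 and 244 CPM. Ribosomal protein genes have many processed pseudogenes, and reads shared with such copies make this value uncertain.

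TTC30B, a component of the transport machinery of cilia, had 1.89, 1.84 and 1.56 CPM in low glucose and 0.656, 0.756 and 0.6 CPM with BHB, with a log2 fold change of -1.39 (SE 0.43), and control was at 0.571, 0.627 and 0.922 CPM. GASK1B, a Golgi-associated protein, had 1.07, 0.774 and 1.29 CPM in low glucose and 0.295, 0.148 and 0.164 CPM with BHB, a log2 fold change of -2.36 (SE 0.59). Control was at 1.7, 0.627 and 1.17 CPM. TNFSF18, a ligand of the TNF family, had 3.44, 1.96 and 2.46 CPM in low glucose, 0.804, 1.51 and 1.27 CPM with BHB and 6.45, 14.4 and 13.7 CPM in control. In GASK1B and TNFSF18 the BHB mean was farther from the control mean than the low glucose mean was. The same held for LOC107131172, RPL12 and ADCYAP1, and the reverse for TTC30B, NGB and B3GNTL1. The log2 fold changes of TNFSF18, the neuropeptide gene ADCYAP1, the oxygen-binding globin gene NGB and B3GNTL1, a putative glycosyltransferase, were -1.13 (SE 0.36), -3.76 (SE 1.15), -1.22 (SE 0.42) and -0.92 (SE 0.31). Mean CPM of ADCYAP1 was 0.291 in low glucose, 0.018 with BHB and 1.29 in control. For NGB these means were 2.71, 1.16 and 1.52 CPM, and for B3GNTL1 3.21, 1.7 and 1.78 CPM, where BHB was nearer to control.

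**Figure D2:**
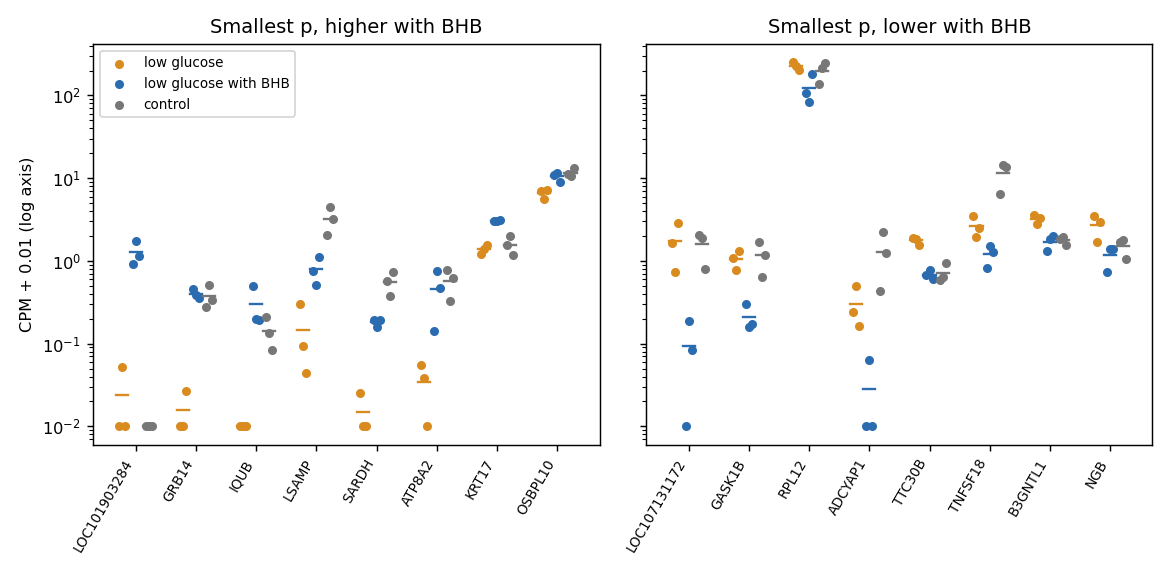
CPM plus 0.01 on a log axis for the 8 genes of smallest p in each direction, 1 point per library and a bar at each group's mean (n = 3 per medium). The points of the BHB libraries and of the low glucose libraries do not overlap in any of the 16 genes, which were picked for their small p.

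Pairing by replicate number brought forward genes whose level differed between numbers. OAS1X, of the family of 2'-5'-oligoadenylate synthetases that activate RNase L on viral RNA, had 0.641, 2.35 and 1.36 CPM in low glucose and 1.94, 8.92 and 3.75 CPM with BHB. Each BHB library was above the low glucose library of its own number, while the groups as wholes overlapped. Its paired log2 fold change was 1.68 (SE 0.25), with an edgeR adjusted p of 0.606. NR4A1, an immediate early nuclear receptor, had 8.73, 10.4 and 15 CPM in low glucose and 11.4, 21.8 and 31.6 CPM with BHB, a paired log2 fold change of 0.85 (SE 0.17). GATM, the enzyme that makes the precursor of creatine, had 11.1, 3.69 and 4.43 CPM in low glucose and 18.6, 5.06 and 10.9 CPM with BHB, paired 0.83 (SE 0.20). KCTD12, an auxiliary subunit of GABA-B receptors, had 1.37, 2.14 and 3.97 CPM in low glucose and 5, 6.36 and 5.16 CPM with BHB without overlap, paired 1.24 (SE 0.30). On the lower side the paired fit brought forward ZFP36L2, an RNA-binding protein that destabilises AU-rich transcripts, at 129, 149 and 154 CPM against 102, 129 and 114 CPM (paired -0.33, SE 0.10). It was lower with BHB in each pair, though the groups overlapped. LOC781298 and LOC508098 also led on this side, with paired log2 fold changes of -0.67 and -1.64.

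Genes of ketone body use, through which BHB would be burnt, stood at similar levels in both media. Of 11 tested genes for ketone body enzymes and monocarboxylate carriers, 0 had an unadjusted p under 0.05, and the median log2 fold change was 0.04, against 0.01 over all genes. The interval lay within 2-fold for 9 of them. BDH1, which interconverts BHB and acetoacetate, had 3.42, 4.8 and 4.94 CPM in low glucose and 3.4, 6.18 and 4.09 CPM with BHB, a log2 fold change of 0.06 (95% interval -0.55 to 0.66). ACAT1, which splits acetoacetyl-CoA, had 116, 147 and 114 CPM and 123, 150.1 and 116 CPM, a log2 fold change of 0.04 (95% interval -0.27 to 0.35). For both the spread between libraries of a medium was larger than the difference between media. OXCT1, the enzyme that commits ketone bodies to oxidation, had 24.8, 19.5 and 14 CPM and 25.3, 20.2 and 26.7 CPM, a log2 fold change of 0.31 (95% interval -0.12 to 0.74). SLC16A1, the carrier MCT1 for lactate and ketone bodies, had 678, 560.2 and 462 CPM and 403, 576 and 539 CPM, a log2 fold change of -0.16 (95% interval -0.53 to 0.20). The cytosolic dehydrogenase gene BDH2 was at 0.49 (SE 0.32).

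Genes of histone acetylation did not separate the media either. Among 18 histone deacetylases and sirtuins the median log2 fold change was 0.03, with 0 members at an unadjusted p under 0.05 and 16 with an interval within 2-fold. HDAC1 had 489, 562 and 584 CPM in low glucose and 453, 563 and 547 CPM with BHB, a log2 fold change of -0.07 (95% interval -0.35 to 0.22). HDAC2 was at -0.15 (-0.41 to 0.12) and HDAC3 at -0.04 (-0.32 to 0.24), both also class I enzymes. The 2 members of smallest p, HDAC5 and HDAC10, were at 0.21 (SE 0.14) and 0.24 (SE 0.17). All 16 histone acetyltransferases and bromodomain readers had intervals within 2-fold, with a median of 0.01. Median fold changes were 0.03 for 27 histone methyltransferases and demethylases, all within 2-fold, and 0.00 for 14 DNA methylation enzymes, 13 of them within 2-fold. These are transcript levels, and the activity of the enzymes was not measured.

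Of 14 tested genes described as responding to BHB or to deacetylase inhibition, 1, FOXO1, had an unadjusted p under 0.05. Over all genes 1.05% were higher and 0.589% lower at that p. The list median was -0.07. FOXO1, a transcription factor restrained by insulin signalling, had 1.44, 2.17 and 2.41 CPM in low glucose, 4.07, 3.2 and 5.07 CPM with BHB and 21.2, 8.39 and 14.4 CPM in control. The groups did not overlap. Its log2 fold change was 1.04 with an SE of 0.34 and an edgeR adjusted p of 1.00. FOXO3 had 11, 22.2 and 23 CPM and 17.4, 28 and 19.3 CPM, which overlapped, with a log2 fold change of 0.20 (95% interval -0.38 to 0.78). TXNIP, an inhibitor of glucose uptake and of thioredoxin from the list of energy and nutrient sensors, had 11.7, 6.31 and 15 CPM in low glucose and 15.8, 14.7 and 15.5 CPM with BHB, with 39.4, 18.1 and 24.7 CPM in control. It was higher in each pair, and its log2 fold change was 0.48 (95% interval -0.20 to 1.15) unpaired and 0.56 (95% interval 0.03 to 1.09) paired. ANGPTL4, an inhibitor of lipoprotein lipase and a target of PPAR factors, was under 1 CPM, at 0.153, 0.0985 and 0.221 CPM and 0, 0.0405 and 0.0909 CPM. Its groups did not overlap either, but BHB was below, with a log2 fold change of -1.82 (SE 1.09).

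Glucose transport and central carbon metabolism were close to level. Medians were 0.01 for 25 genes of glucose uptake and glycolysis, -0.03 for 14 genes of the pentose phosphate and hexosamine pathways, -0.03 for 29 genes of pyruvate entry and the TCA cycle and 0.01 for 20 genes of fatty acid oxidation. SLC2A1, the transporter GLUT1, had 578, 534 and 603 CPM in low glucose and 537, 546 and 549 CPM with BHB, a log2 fold change of -0.07 (95% interval -0.30 to 0.16). SLC2A3, the transporter GLUT3, had 3643, 1959 and 1692 CPM and 1601, 2198 and 2009 CPM, where low glucose replicate 1 stood above the rest, and its log2 fold change was -0.33 (SE 0.23). SLC2A8 was at -0.23 (SE 0.14). PDK3, a kinase that shuts pyruvate dehydrogenase, was the 1 of 29 TCA-list members with an unadjusted p under 0.05. It had 21.5, 19.5 and 26.5 CPM and 27.7, 27.7 and 34.9 CPM without overlap, with a log2 fold change of 0.42 (SE 0.17). Among all genes tested, 1.05% were higher at that p, and 2.96% lay above without overlap.

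**Figure D3:**
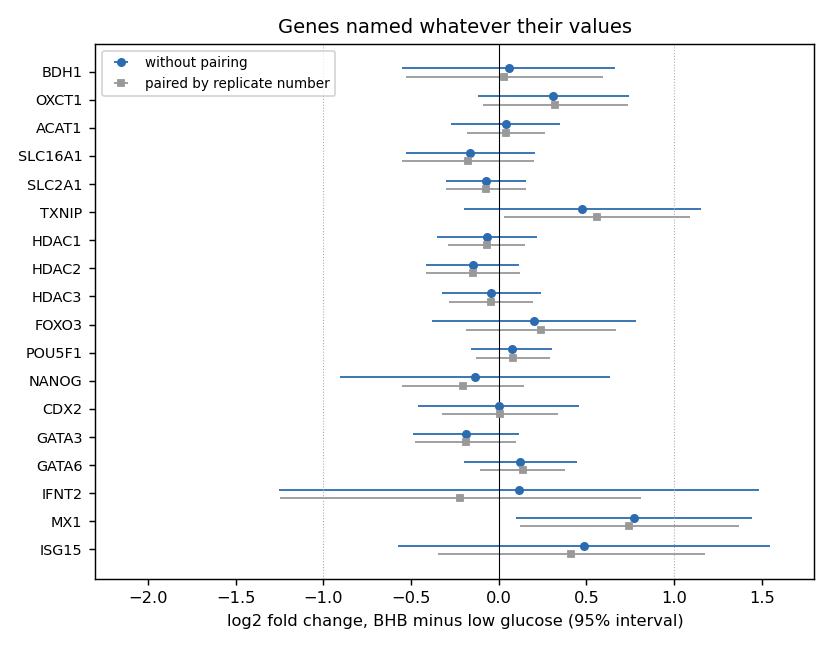
Log2 fold change (BHB minus low glucose) with its 95% interval for 18 genes named whatever their values, from the unpaired fit (circles) and the fit paired by replicate number (squares). Dotted lines mark 2-fold in either direction; the unpaired intervals of all genes but MX1 include 0.

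Interferon response genes were the list whose median lay farthest above 0. Interferons signal through JAK kinases and STAT factors to induce these antiviral genes, and in ruminants the trophectoderm itself secretes interferon tau, the signal of pregnancy recognition. Of 48 tested members, 41 had a positive and 7 a negative fold change, and the median was 0.43, against 0.01 over all genes. None passed the adjusted test. At an unadjusted p under 0.05, 14 were higher and 0 lower, against 1.05% and 0.589% of all genes. In 9 of the 48 (18.8%) the BHB libraries lay above the low glucose libraries without overlap, against 2.96% of all genes, and in 0 below. The members were measured in the same pools, so their number is no count of separate observations. This limit holds for the other lists too.

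The summed level of the 48 genes was 528, 578 and 586 CPM in low glucose replicates 1 to 3, 629, 753 and 683 CPM with BHB and 1349 to 1422 CPM in control. By this sum, which genes of high level weigh on most, every BHB library was above every low glucose library and below every control library. By the median deviation of the members from their mean log2 CPM over the 6 libraries, the media were not fully apart. BHB replicate 1 was at -0.0098 and low glucose replicate 2 at -0.0030. The comparisons with control use the same low glucose libraries, so they are not independent of the difference described here. Pair by pair, the median log2 difference of the members was 0.27, 0.60 and 0.43. BHB replicate 2 was the highest BHB library for most of the members named below.

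Sensors and regulators of the response included genes without overlap. TRIM25, the ubiquitin ligase that activates the RNA sensor RIG-I, had 1.94, 1.59 and 1.51 CPM in low glucose, 3.54, 3.71 and 2.47 CPM with BHB and 9.38, 7.89 and 6.02 CPM in control, a log2 fold change of 0.95 (SE 0.27). DHX58, a helicase of the RIG-I family, had 1.76, 2.03 and 2.6 CPM and 2.84, 4.94 and 2.8 CPM, with 10.9, 10.2 and 9.45 CPM in control. IRF7, a transcription factor of the interferon loop, had 71.6, 60.3 and 66.9 CPM and 102, 73.2 and 73.4 CPM, but control, at 63.1, 68.1 and 69 CPM, lay in the low glucose range. ZBP1, a sensor of Z-form nucleic acids that is not a member of the list but led in the paired fit, had 0.458, 1.25 and 0.458 CPM in low glucose and 0.82, 3.94 and 1.64 CPM with BHB, higher within each number and overlapping between groups. DHX58, IRF7 and the further genes RTP4, UBA7, USP18, LGALS3BP, IFIT1, IFIT5, OAS2, TAP1, IFIH1, ZNFX1 and RSAD2 are named here after their values were seen.

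Among the effectors, IFI44, an interferon-induced protein, had 0.137, 0.394 and 0.322 CPM in low glucose, 0.492, 2.48 and 0.564 CPM with BHB and 6.23, 5.34 and 4.06 CPM in control, a log2 fold change of 2.05 (SE 0.62). MX1, an antiviral GTPase, had 6.98, 11.2 and 6.94 CPM in low glucose, 7.32, 19.9 and 15.7 CPM with BHB and 119, 86.1 and 89.7 CPM in control. Pair 1 of MX1 was nearly level and pairs 2 and 3 were higher with BHB, with a log2 fold change of 0.77 (SE 0.31) and overlapping groups. ISG15, a ubiquitin-like modifier, had 3.48, 9.68 and 3.83 CPM in low glucose and 2.62, 13.6 and 7.55 CPM with BHB, lower in pair 1 and higher in the others, at 0.49 (SE 0.49). UBA7, the enzyme that activates ISG15 for conjugation, had 0.626, 2.28 and 1.98 CPM and 2.81, 5.26 and 3.2 CPM without overlap, at 1.21 (SE 0.40), and USP18, which removes ISG15 again, was at 0.54 (SE 0.24).

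RTP4 was at 1.88 (SE 0.67), LGALS3BP at 0.35 (SE 0.14), IFIT1 at 1.12 (SE 0.49), IFIT5 at 0.97 (SE 0.37) and TAP1, a peptide transporter of antigen presentation, at 0.42 (SE 0.18). IFIH1, the RNA sensor MDA5, was at 0.89 (SE 0.44) and ZNFX1, another RNA sensor, at 0.24 (SE 0.13). RSAD2, the antiviral enzyme viperin, lay the other way at -0.31 (SE 0.55). OAS2 had no count in low glucose and 18 with BHB, at least 6.17-fold higher against the floor of 3 counts. With OAS2 at that bound the list median was also 0.43. The OAS, IFIT, MX and IFI44 genes belong to families of similar copies, and shared reads make single members uncertain.

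The size of the interferon difference rested in part on single libraries. Without BHB replicate 2 the median was 0.26 and 5 genes were at an unadjusted p under 0.05, without BHB replicate 1 these were 0.63 and 18, and without low glucose replicate 1 the count was 8. Without both low glucose replicate 1 and BHB replicate 2, the libraries at the ends of the mitochondrial share, the median was 0.18 and the count 3, a choice made after seeing the data. Fitted on the 6 libraries alone, 5 genes had an unadjusted p under 0.05, and by limma-voom 6.

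**Figure D4:**
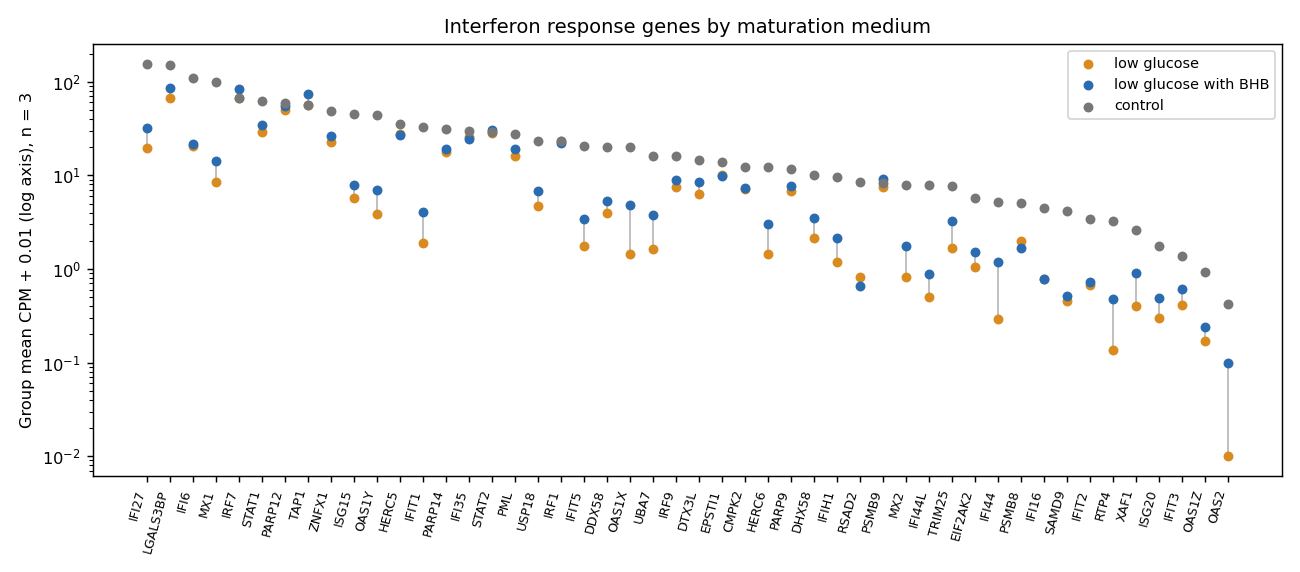
Group mean CPM plus 0.01 (log axis, n = 3 per medium) of the 48 tested interferon response genes, ordered by their level in control. For most genes the BHB point lies above the low glucose point, and for 41 the fitted fold change is positive.

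Genes of interferon tau and pregnancy recognition had a median of 0.11 over 10 tested members unpaired and -0.11 paired, with pair medians of -1.07, 0.45 and 0.35 and 0 members at an unadjusted p under 0.05. Only 2 of the 10 intervals lay within 2-fold, and the difference between this list and the interferon response list was not tested. IFNT2, an interferon tau gene, had 1.51, 3.21 and 2.65 CPM in low glucose and 0.427, 2.82 and 4.75 CPM with BHB, and its interval was wide, at -1.25 to 1.48 around a log2 fold change of 0.12. With the replicate block the sign turned, at -0.22. Interferon tau genes are near-identical copies, so single members are uncertain. TKDP1, a trophoblast protease inhibitor gene, was at 0.67 (SE 0.37) and PTGES, a prostaglandin E synthase gene, at -0.29 (SE 0.23).

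Mitochondrially encoded transcripts had the lowest list median, -0.72, and differed between the pairs. All 13 had a negative fold change, between -0.82 and -0.52, and 8 an unadjusted p under 0.05, against 0.589% of all genes. Yet 0 of the 13 were without overlap. Their summed level was 83881, 57771 and 44022 CPM in low glucose replicates 1 to 3 and 32618, 22859 and 62761 CPM with BHB, with control at 46040 to 53032 CPM. Pair by pair the median log2 difference was -1.35, -1.36 and 0.42, so pairs 1 and 2 were lower with BHB and pair 3 higher. The ranges of the media overlapped.

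CYTB, a subunit of respiratory complex III, had 5770.2, 3631 and 2505 CPM in low glucose and 2281, 1238 and 3203 CPM with BHB, a log2 fold change of -0.82 (SE 0.32). ND1, of complex I, was at -0.74 (SE 0.31) and COX1, of complex IV, at -0.61 (SE 0.33). These genes are cut from shared long transcripts, so their number is no count of separate observations. Without low glucose replicate 1 the median was -0.37, without BHB replicate 2 -0.42 and without both -0.09. With number 3 left out and the replicate block, 5 genes passed edgeR's test as lower, ND6, COX2, COX1, ND5 and ND2, with edgeR adjusted p from 0.0193 to 0.0396.

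Nuclear genes of oxidative phosphorylation, which encode the remaining subunits of the same complexes, were only slightly lower in value. Of 60 tested, 53 had a negative fold change, with a median of -0.08, and all 60 intervals lay within 2-fold. ATP5F1E, a subunit of ATP synthase, had 113, 103 and 99.9 CPM in low glucose and 87.4, 85 and 79.1 CPM with BHB without overlap, a log2 fold change of -0.33 (SE 0.12). UQCRB, of complex III, was at -0.28 (SE 0.12). These were the 2 members with an unadjusted p under 0.05, against 0.589% of all genes lower.

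Ribosomal protein genes showed a small difference of nearly uniform sign over the members, while the libraries of the media overlapped in summed level. Of 74 tested, 73 had a negative fold change, the median was -0.15, and the intervals of 73 lay within 2-fold. An unadjusted p under 0.05 was found for 5, all lower, against 0.589% of all genes lower. They were RPL12, RPS27 and, named after their values were seen, RPL39, RPLP1 and RPS20. Of the 74, 8 were below without overlap, against 2.54% of all genes. The pair medians were -0.22, -0.11 and -0.11. Their summed level was 61051, 63694 and 54902 CPM in low glucose replicates 1 to 3. With BHB it was 53187, 60165 and 50563 CPM, so BHB replicate 2 lay above low glucose replicate 3. RPS27, of the small subunit, had 265, 297 and 227 CPM in low glucose and 203, 226 and 202 CPM with BHB, a log2 fold change of -0.32 (SE 0.12). Without low glucose replicate 2 the median was -0.0924, without BHB replicate 2 it was -0.23, without low glucose replicate 3 it was -0.24, and without low glucose replicate 1 and BHB replicate 2 together, the libraries at the ends of the mitochondrial share, it was -0.22.

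Stress and lipid lists had medians between -0.19 and 0.17. Of 37 genes of the amino acid and integrated stress response, 31 (83.8%) had a positive fold change, against 51.2% of all genes. The pair medians were 0.29, 0.09 and 0.06. The list median was 0.17, with 0 members at an unadjusted p under 0.05. Without low glucose replicate 1 this median was 0.03, without BHB replicate 2 it was 0.04, and without both it was -0.05. GPT2, a mitochondrial alanine transaminase, was at 0.24 (SE 0.11) and VLDLR, a lipoprotein receptor, at 0.71 (SE 0.34). For 21 genes of the unfolded protein response the median was -0.08. Of 22 genes of cholesterol synthesis and uptake, 20 had a negative fold change, with a median of -0.19 and pair medians of -1.14, -0.09 and 0.46, so the pairs did not share a direction. Without BHB replicate 1 the median of this list was 0.07. SC5D, a late enzyme of cholesterol synthesis, had 121, 98 and 52.1 CPM and 48.9, 78.7 and 71.5 CPM, and STARD4, a sterol carrier, 19.4, 16.6 and 10.9 CPM and 9.04, 14 and 12.6 CPM. Both followed the pairs, lower with BHB in pairs 1 and 2 and higher in pair 3. The mitochondrial share moved with the pairs too, and its part was not tested. Medians were -0.05 for 21 genes of fatty acid synthesis and lipid droplets, -0.01 for 16 heat shock genes, -0.00 for 30 antioxidant genes and -0.07 for 18 hypoxia genes.

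**Figure D5:**
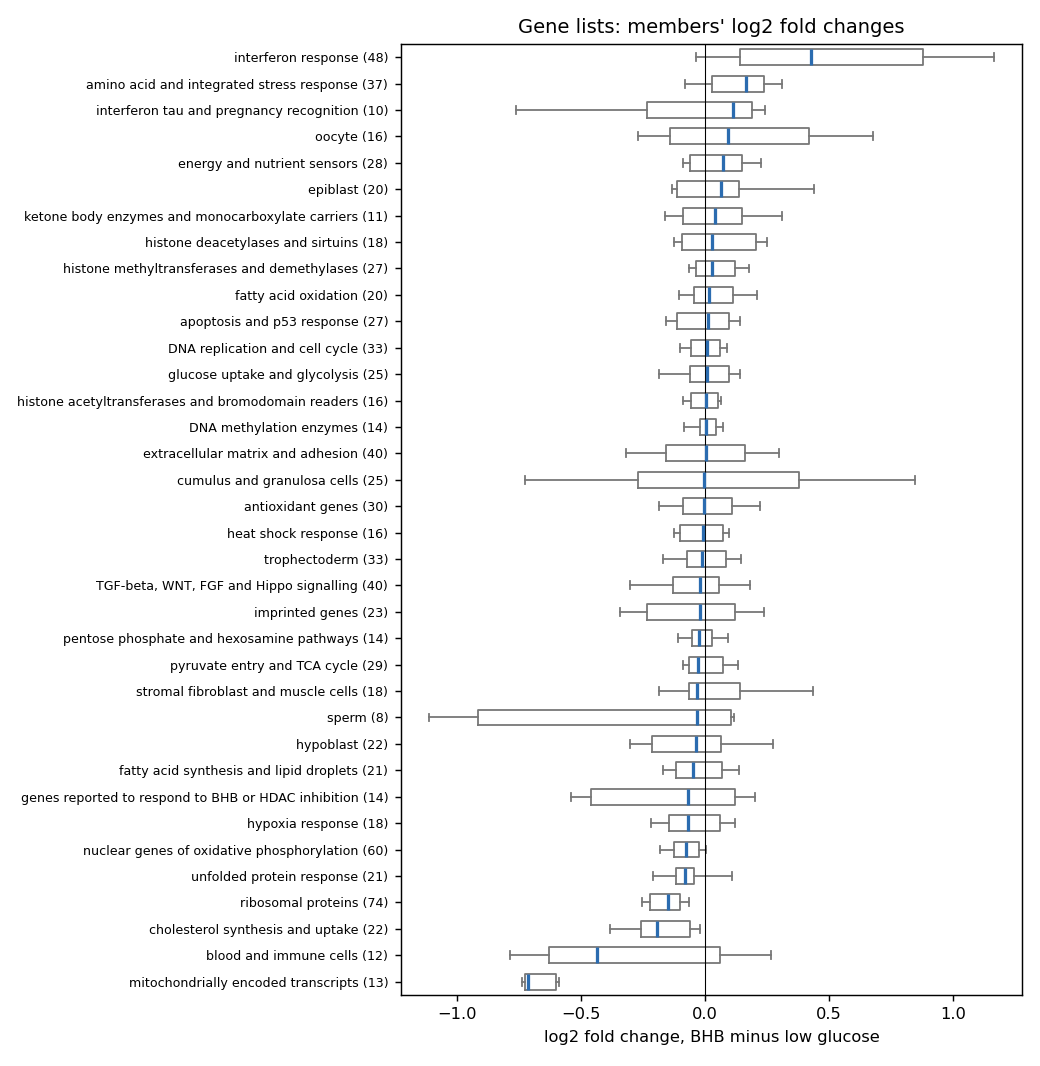
Log2 fold changes (BHB minus low glucose) of the members of 36 gene lists, ordered by median, with the number of tested members in brackets. The box spans the quartiles, the bar is the median and the whiskers run from the 10th to the 90th percentile; 29 of the 36 medians lie within 0.1 of 0.

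Among 28 energy and nutrient sensors the median was 0.07, with FOXO1 and IGFBP5 higher and INSR lower at an unadjusted p under 0.05. Over all genes 1.05% were higher and 0.589% lower at that p. IGFBP5, which binds insulin-like growth factors, had 54, 70.6 and 50.4 CPM in low glucose, 49, 142 and 108 CPM with BHB and 232, 331 and 399.8 CPM in control, at 0.77 (SE 0.31), where BHB replicate 1 lay below every low glucose library. INSR, the insulin receptor, named after its values were seen, had 10.2, 12.9 and 11.6 CPM in low glucose and 6.68, 10.7 and 7.22 CPM with BHB, at -0.49 (SE 0.22). Medians were 0.00 for 40 genes of extracellular matrix and adhesion, 0.01 for 27 of apoptosis, 0.01 for 33 of DNA replication and the cell cycle and -0.02 for 40 of TGF-beta, WNT, FGF and Hippo signalling, each list with 0 members at an unadjusted p under 0.05. ITGAV, an integrin subunit, led the matrix list at 0.41 (SE 0.22), and GSTA1, a glutathione transferase, was at 0.75 (SE 0.39).

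Lineage genes of the blastocyst had list medians close to 0. Median fold changes were 0.06 for 20 epiblast genes, -0.04 for 22 hypoblast genes and -0.01 for 33 trophectoderm genes. POU5F1, the pluripotency factor, had 902, 1004 and 1101 CPM in low glucose and 1065, 1017 and 1085 CPM with BHB, a log2 fold change of 0.07 (95% interval -0.16 to 0.30). NANOG, an epiblast factor, varied more within media, at 33.8, 70.6 and 48.9 CPM and 24.1, 73.9 and 41.6 CPM, with replicate 2 the highest in both and a 95% interval of -0.91 to 0.64. CDX2, the trophectoderm factor, had 127, 169 and 166 CPM and 139, 187 and 135 CPM (95% interval -0.46 to 0.46). GATA3, also of the trophectoderm, had 136, 122 and 136 CPM and 109, 121 and 117 CPM, below without overlap by a small margin, at -0.18 (95% interval -0.49 to 0.12). GATA6, a hypoblast factor, had 549.6, 592 and 758 CPM and 690.0, 639 and 740.0 CPM (95% interval -0.20 to 0.45). Among the members of smallest p, LIN28B, an RNA-binding protein of early cells, was at 0.55 (SE 0.27), GDF3, a TGF-beta ligand, at 0.44 (SE 0.26), PDGFRA, a hypoblast receptor, at -0.27 (SE 0.16) and FN1, fibronectin, at -0.22 (SE 0.13). In the paired fit 3 of the 22 hypoblast genes had an unadjusted p under 0.05, against 0 unpaired. Over all genes 1.32% were higher and 0.747% lower at that p in the paired fit. The 3 genes did not share a direction. PDGFRA was lower with BHB in each pair (-0.27, SE 0.11), and SOX17 and APOE, named after their values were seen, were higher.

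Summed over the lists, epiblast genes took 3975 to 5118 CPM (unscaled) in low glucose and 4598 to 4909 with BHB, hypoblast genes 10370 to 10937 and 8612 to 10758, and trophectoderm genes 25369 to 28236 and 25593 to 31944. The ranges overlapped for each lineage. Markers of other cells had overlapping ranges as well: cumulus and granulosa genes took 141 to 280 CPM in low glucose and 188 to 257 with BHB, and blood genes 62.9 to 118 and 62.7 to 96.8. INHA and NR5A1, genes of steroid-producing and granulosa cells, were the 2 of 25 cumulus and granulosa genes with an unadjusted p under 0.05. Over all genes 1.05% were higher at that p. INHA had no count in low glucose and 44 with BHB, most of them in replicate 1 (0.541, 0.054 and 0.127 CPM), and NR5A1 had 1.21, 1.24 and 0.865 CPM and 1.15, 2.89 and 1.82 CPM, so neither was evenly higher. In the other marker lists with such a gene it was EOMES for trophectoderm (0, 0 and 0.136 CPM and 0.853, 0.108 and 0.309 CPM), HBG, a globin gene, for blood (6.08, 5.53 and 19.2 CPM and 4.28, 2.92 and 3.51 CPM) and TPM2, a tropomyosin, for stromal cells (5.44, 3.74 and 4.58 CPM and 5.4, 7.54 and 7.56 CPM). HBG was lower and the other 2 were higher, against 0.589% of all genes lower and 1.05% higher at that p. List medians were -0.00 for cumulus and granulosa, 0.09 for 16 oocyte, -0.43 for 12 blood, -0.03 for 18 stromal and -0.03 for 8 sperm genes. In the paired fit, further genes of the stress, antioxidant, sensor, signalling and marker lists with an unadjusted p under 0.05 were TXNIP, GATM, PRM1, GSTM1 and ID1. AARS1 and ACTA2, named after their values were seen, were also among them. All were higher with BHB except ID1, which was lower. Among all genes tested, 1.32% were higher and 0.747% lower at that p in the paired fit. The imprinted list of 23 tested genes held 1 gene at an unadjusted p under 0.05 in each direction, against 1.05% of all genes higher and 0.589% lower. PEG10, which is expressed from the paternal allele and needed in the placenta, had 5.51, 4.17 and 6.06 CPM in low glucose, 6.23, 9.1 and 9.24 CPM with BHB and 28, 20.4 and 22.3 CPM in control, a log2 fold change of 0.64 (SE 0.22). CDKN1C, a maternally expressed inhibitor of the cell cycle, had 13.6, 17.2 and 9.77 CPM and 7.32, 9.92 and 11.1 CPM, at -0.52 (SE 0.23), with overlap.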

How the data were processed

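The authors deposited a table of estimated counts; 23.4% of its values are fractional. Per the submitters' processing notes, the authors used fastp, kallisto and DESeq2 with build bosTau9; no version is given in the sources used here. Per the labels' protocols, poly(A) RNA was enriched. Kallisto divides reads between similar transcripts by estimation. Of 22127 genes, 17706 had a symbol in the table and 1366 got one from RefSeq (ARS-UCD2.0, names only).

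Estimated counts were rounded and fitted in edgeR 4.0.16 (R 4.3.3) on all 9 libraries. filterByExpr (minimum count 10, minimum total 15) left 16469 genes, TMM factors scaled libraries, and Benjamini-Hochberg adjustment ran over all genes with a threshold of 0.05. The paired fit added the replicate number. Deviations of same-numbered libraries correlated at 0.115, 0.243 and 0.102, against -0.174 to 0.0390 for other pairs of libraries, so the numbers were taken as pairs, from the data and not the labels. The common biological coefficient of variation was 0.322 unpaired and 0.290 paired. The steps were tested on simulated data.

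The comparison, 28 pathway lists and 8 marker lists were chosen with earlier results of these data known. Named genes are the 8 of smallest p per direction and fit, the 2 of smallest p per list and a set of genes of interest. SOX2 of that set is not analysed here. Alternatives were RLE factors, no filter, a mean count of at least 50, the 6 libraries alone, DESeq2 1.42.0, limma-voom (limma 3.58.1) and leaving out libraries. Exact counting intervals and floors cover counting error only. Figures used matplotlib 3.10.9.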

Additional observations from a re-analysis of the deposited data

How the results depend on the processing

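With 3 pools per medium, differences under 2-fold in genes below 10 CPM were mostly not resolved. The count of 0 genes in each direction held with RLE factors, no filter, a mean count of at least 50, the 6 libraries alone, limma-voom and edgeR's replicate block. DESeq2 called 1 gene higher and 1 lower, and with the replicate block 4 higher and 3 lower, 7 in all: LOC101903284, LOC107131172, OAS1X, NR4A1, RPL12, MMP1 and ENSBTAG00000048049, a gene without a symbol; the last pair is named after its values were seen. MMP1 had 11, 23 and 0 counts in low glucose, 0 in each BHB library and 0, 0 and 39 in control. Leaving out libraries gave 0 to 5 genes lower. The replicate block changed no other call.

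The interferon median ranged from 0.26 to 0.63 when libraries were left out and the count of its genes at an unadjusted p under 0.05 from 5 to 18; the count was 5 on the 6 libraries alone and 6 by limma-voom. The ribosomal median ranged from -0.24 (without low glucose replicate 3) to -0.0924 (without low glucose replicate 2). Without low glucose replicate 1 and BHB replicate 2 the interferon median was 0.18, the count 3 and the ribosomal median -0.22; there the signs of ISG15 (-0.42), BDH1 (-0.38), ACAT1 (-0.13), FOXO3 (-0.30) and IFNT2 (-0.18) turned. IFNT2 was -0.22 with the replicate block, -0.32 with it on the 6 libraries, -0.23 in DESeq2 with it and -0.39 by limma-voom. RSAD2 was 0.0105 by limma-voom, and CDX2 was 0.00707 with the replicate block in edgeR and 0.00705 in DESeq2.

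Leaving out libraries turned the sign of genes whose differences lay within their error: ISG15 ranged from -0.16 to 1.12, RSAD2 from -0.76 to 0.67, BDH1 from -0.23 to 0.23, ACAT1 from -0.0805 to 0.17, SLC16A1 from -0.36 to 0.13, HDAC5 from -0.0161 to 0.37, HDAC1 from -0.14 to 0.0259, HDAC3 from -0.12 to 0.0435, SLC2A3 from -0.53 to 0.21, FOXO3 from -0.0741 to 0.48, SC5D from -0.82 to 0.0478, POU5F1 from -0.00114 to 0.15, NANOG from -0.64 to 0.18, CDX2 from -0.17 to 0.14, IFNT2 from -0.85 to 0.62 and PTGES from -0.66 to 0.0186. The causes were not tested.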
